A study of Homo sapiens with 6 samples.

Results

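The genes described here are 36 genes of the glutathione, thioredoxin, NRF2, NADPH, iron and ferroptosis systems, chosen by symbol for what their products do and not for their values. All 36 were found among the 60564 gene rows of the count table, and all 36 were among the 17006 genes with enough counts to be tested. The RNA came from A2780, an established line of human ovarian cancer cells, with 3 GPT2si and 3 GPT2sinc libraries. GPT2 is the mitochondrial alanine aminotransferase, which passes an amino group between glutamate and alanine. The series concerns a lack of GPT2 in these cells. The labels do not spell out si and sinc and give no dose or time. Nor do they say whether the libraries within each group were grown as separate cultures, so every p-value rests on a library-to-library spread that may be technical.

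Glutathione is a small peptide made from glutamate, cysteine and glycine, and it is the main thiol that cells spend on peroxides. Glutathione and thioredoxin are both restored with electrons from NADPH, much of it made in the pentose phosphate pathway. NRF2, held back by KEAP1, is the transcription factor that switches on many of these genes through the antioxidant response element. Ferroptosis is a form of cell death in which iron drives the peroxidation of polyunsaturated membrane lipids, and GPX4 is the enzyme that reduces those lipid peroxides.

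GPT2 itself had 236, 230 and 219 CPM (counts scaled to library size) in the GPT2sinc libraries and 93.8, 94.3 and 96.9 CPM in the GPT2si libraries, a log2 fold change of -1.26 (SE 0.08; edgeR adjusted p = 0.000393). Total counts ran from 41931162 to 50882329 per library, where 3 counts equal 0.0597 to 0.0770 CPM, a limit that covers counting error only. Protein-coding transcripts of the mitochondrial genome made up 3.38% to 4.54% of the counts in GPT2sinc and 4.37% to 5.08% in GPT2si. Of 7 ovarian epithelial markers, KRT7 and WT1 were at 0 in every library. The 7 summed to 57.2 to 59.6 CPM in GPT2sinc and 64.2 to 80.0 CPM in GPT2si. KRT8 (31.0 to 42.9 CPM) and KRT18 (24.1 to 35.4 CPM) made up most of that sum. Their log2 fold changes were 0.27 and 0.33, that of EPCAM was -0.26, and none of these passed the test. PAX8 and MUC16 were at most 0.351 CPM. The 5 fibroblast markers were all detected and summed to 360 to 390 CPM in GPT2sinc and 393 to 407 CPM in GPT2si. COL1A1 (112 to 131 CPM) and COL1A2 (236 to 263 CPM) made up most of that sum, and LUM was at most 0.327 CPM. Log2 fold changes were 0.09 for COL1A1, 0.10 for COL1A2 and 0.02 for DCN. They were -0.18 for PDGFRB and -0.37 for LUM, and none of these markers passed the test. Macrophage, endothelial, lymphocyte and erythroid markers summed to at most 8.72 CPM in any library. In bulk RNA, fewer cells of a type and less RNA per cell cannot be told apart. The part of these marker differences in the results was not tested.

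One library of each group stood apart from its partners. GPT2si 2 held the highest value of 17 of the 36 genes and the lowest value of another 11. GPT2sinc 1 held the lowest value of 21 genes and the highest of 3. This pattern followed the base composition of the transcripts. Of the 17 genes with over 50% G and C in their reference transcript, 15 had their highest value in GPT2si 2 and 0 had their lowest there. Of the 19 genes at 50% or less, 2 had their highest value and 11 their lowest value in GPT2si 2. Over the 36 genes, which share each library, the log2 difference of GPT2si 2 from the mean of GPT2si 1 and 3 had a Pearson r of 0.84 and a Spearman rho of 0.87 with GC content. The same r was 0.47 over all tested genes with a GC value. GPX1, GSTP1 and GPX4 lay at the GC-rich end (63.0% to 64.2%). GCLM, ACSL4, TFRC, SOD2 and SLC40A1 lay at the GC-poor end (37.3% to 42.4%). For this reason, values are given below with and without these libraries, and with offsets for GC content and transcript length fitted in each library.

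**Figure D1:**
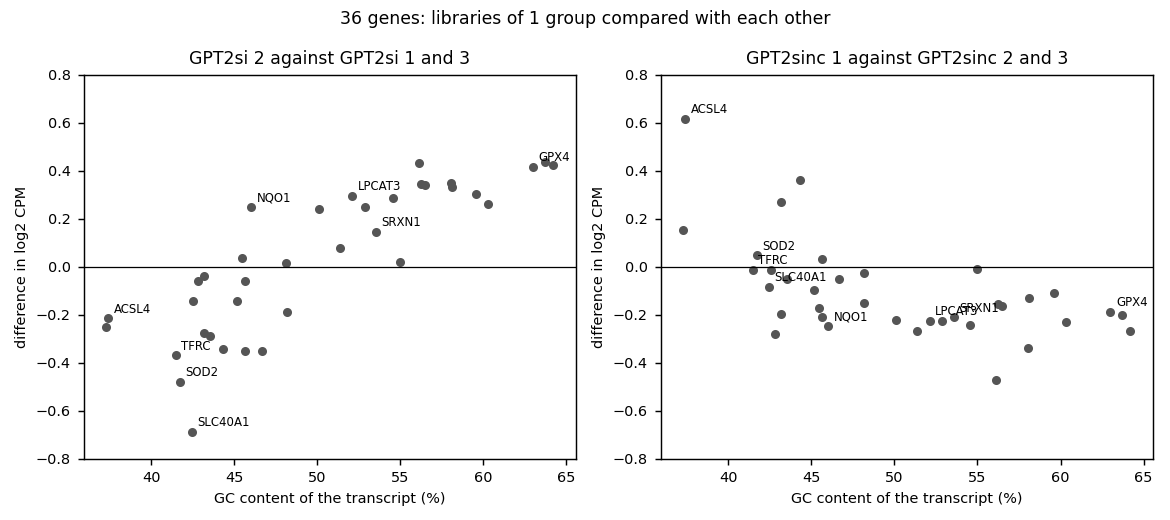
Each point is 1 of the 36 genes. The x axis is the GC content of its reference transcript in percent, and the y axis is the difference in log2 CPM between 1 library and the mean of the other two of its group. GPT2si 2 (left) was higher for GC-rich genes and lower for GC-poor ones (r = 0.84), and GPT2sinc 1 (right) ran the other way (r = -0.57).

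None of the 36 genes passed the test at an adjusted p of 0.05, so 0 rose and 0 fell in the edgeR quasi-likelihood fit, where 1.42% of the 17006 tested genes passed (98 with a higher and 143 with a lower level). With no adjustment, 4 genes had a p under 0.05 and were higher in GPT2si, and 0 were lower, against 19.6% of all tested genes in either direction. These 4 were NQO1, TFRC, LPCAT3 and SRXN1. The DESeq2 Wald test called NQO1, TFRC and LPCAT3 higher, 3 of 36, where it called 6.23% of all genes. With offsets for GC content and length, edgeR called NQO1, TFRC, LPCAT3 and SRXN1, 4 of 36, where it called 12.0% of all genes. Without GPT2si 2 it called NQO1 and TFRC, 2 of 36, against 4.77% of all genes. Without both GPT2sinc 1 and GPT2si 2 it called NQO1, TFRC and LPCAT3 higher and HMOX1 lower, 4 of 36, against 9.19% of all genes.

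In 7 of the 36 genes every GPT2si library was above every GPT2sinc library (14.9% of all tested genes), namely GPX1, TXN, SRXN1, KEAP1, NQO1, TFRC and LPCAT3. In CTH and ABCC1, 2 of 36, every GPT2si library was below every GPT2sinc library (13.2% of all tested genes). The groups overlapped in the other 27. Log2 fold changes ran from -0.36 for SLC40A1 to 0.47 for LPCAT3, with 24 above 0 and 12 below. Their median was 0.10, and that of all tested genes was -0.01. The 95% interval lay inside a 2-fold change either way for all 36 genes, and inside a 1.5-fold change for 29. With the GC and length offsets the median of the 36 was 0.11, and without GPT2sinc 1 and GPT2si 2 it was 0.02.

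**Figure D2:**
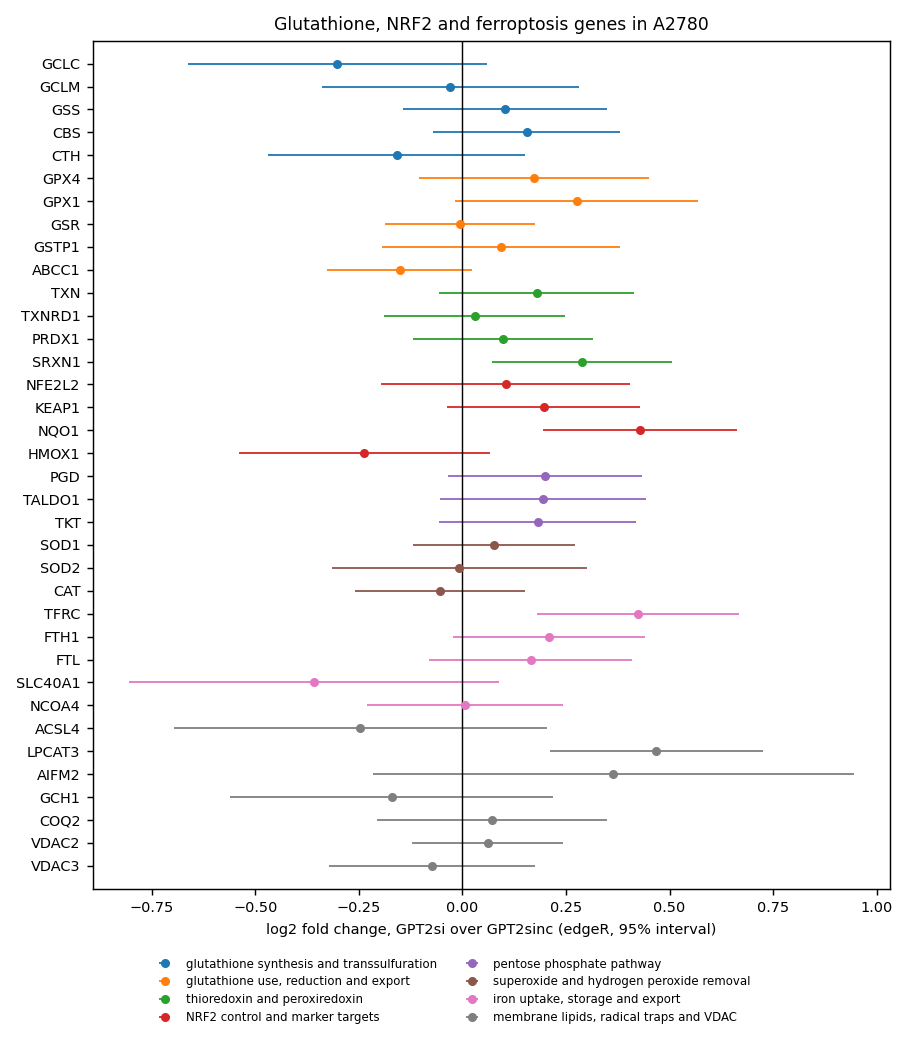
Log2 fold change of each of the 36 genes in GPT2si over GPT2sinc (points) with its 95% interval (lines), from the edgeR fit and coloured by role. The intervals of SRXN1, NQO1, TFRC and LPCAT3 lie above 0, and the other 32 intervals include 0.

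The promoters were read for the antioxidant response element, since NRF2 targets make up much of the set. RefSeq promoter sequences (GRCh38.p14) were at hand for 27 of the 36 genes, in 39 promoters, and VDAC3, ABCC1, GSS, FTH1, PRDX1, SOD1, GSR, GCH1 and HMOX1 had no entry. The core searched was TGACNNNGC on either strand, in the 250 bases before the start. It was in 8 of these 39 promoters (20.5%) and in 10.9% of the 35116 promoters of the table. By gene it was in 7 of 27 (25.9%) and in 13.2% of all genes, and the 7 were GCLM, CBS, GSTP1, TXNRD1, KEAP1, PGD and AIFM2. A match describes the letters and is no proof of a site. Windows around the core are shown for 1 gene each of glutathione synthesis, glutathione use, thioredoxin and NRF2 control, with the core in capitals. They lie at chr1:93909436-93909484 (minus strand) for GCLM, chr11:67583726-67583774 (plus) for GSTP1, chr12:104215660-104215708 and chr12:104286910-104286958 (plus) for the TXNRD1 promoters, and chr19:10502774-10502822 (minus) for KEAP1. The KEAP1 promoter held another match, whose first base lay 54 bases before the start. Only its end falls in the KEAP1 window shown, in lower case.
GCLM: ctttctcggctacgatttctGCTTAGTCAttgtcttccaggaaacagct
GSTP1: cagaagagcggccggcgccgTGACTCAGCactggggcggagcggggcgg
TXNRD1, first promoter: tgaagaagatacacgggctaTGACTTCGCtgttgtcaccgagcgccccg
TXNRD1, second promoter: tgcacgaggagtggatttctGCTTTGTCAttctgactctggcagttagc
KEAP1: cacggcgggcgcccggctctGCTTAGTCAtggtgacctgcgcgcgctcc
None of GCLM, GSTP1, TXNRD1 and KEAP1 passed the test. NQO1 and TFRC, which did pass in several alternative fits, did not hold the core in the same stretch. LPCAT3 and SRXN1, which also passed in alternative fits, did not hold the core there either. Bases farther upstream were not searched, so its absence here does not mean that a gene lacks the element. The 250 bases before the start of NQO1 and TFRC follow, from chr16:69726561-69726810 for NQO1 and chr3:196082091-196082340 for TFRC, both on the minus strand. The capitals in TFRC mark ACGTG, the core of the hypoxia response element, whose first base lay 88 bases before the start. NQO1 held neither motif here. ACGTG, searched on both strands, was in 17.9% of the promoters of the 36 genes and 18.5% of all promoters.
NQO1: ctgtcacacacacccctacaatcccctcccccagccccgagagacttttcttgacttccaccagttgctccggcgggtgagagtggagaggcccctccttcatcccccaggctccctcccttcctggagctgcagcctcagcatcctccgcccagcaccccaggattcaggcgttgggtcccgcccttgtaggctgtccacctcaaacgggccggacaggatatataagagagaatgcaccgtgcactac
TFRC: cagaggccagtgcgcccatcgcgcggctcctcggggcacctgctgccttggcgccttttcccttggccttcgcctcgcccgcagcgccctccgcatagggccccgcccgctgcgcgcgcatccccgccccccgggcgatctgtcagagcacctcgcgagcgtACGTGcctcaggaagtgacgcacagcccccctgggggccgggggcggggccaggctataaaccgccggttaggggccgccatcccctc

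NQO1, the quinone reductase that is the usual marker of NRF2 activity, had 263, 307 and 318 CPM in GPT2sinc and 376, 445 and 373 CPM in GPT2si. All 3 GPT2si libraries were above all 3 GPT2sinc libraries, and the highest was GPT2si 2. The log2 fold change was 0.43 (SE 0.10; 1.35-fold; edgeR adjusted p = 0.0777), from 296 ± 29.1 to 398 ± 40.7 CPM (SD, n = 3 each). Over the alternative fits it ran from 0.26 to 0.48, with adjusted p from 0.0114 to 0.333. HMOX1, the heme oxygenase that is also driven by NRF2 and is repressed by BACH1, did not share that direction. It had 44.6, 56.0 and 56.7 CPM in GPT2sinc and 41.3, 52.0 and 40.3 CPM in GPT2si, so the groups overlapped through GPT2sinc 1 and GPT2si 2. The log2 fold change of HMOX1 was -0.24 (SE 0.13; edgeR adjusted p = 0.36). Without those libraries together it was -0.47 (edgeR adjusted p = 0.0026), over alternatives with adjusted p from 0.0026 to 0.63, and that choice was made after seeing the data. NFE2L2, which encodes NRF2, had 23.0 to 23.6 CPM in GPT2sinc and 24.0, 21.0 and 29.9 CPM in GPT2si (log2 fold change 0.10; adjusted p = 0.701). It shares 1054 exon bases with an unnamed gene model on the same strand, whose count was 5.35% of that of NFE2L2. On the opposite strand it shares 54 with AGPS, whose count was 78.2% of that of NFE2L2, so the NFE2L2 count is uncertain. KEAP1, the sensor that delivers NRF2 for degradation, had 137, 160 and 160 CPM in GPT2sinc and 166, 196 and 161 CPM in GPT2si. GPT2si 3 lay just above the pair of GPT2sinc libraries at 160 CPM, and the log2 fold change was 0.20 (adjusted p = 0.328), or 0.09 without GPT2si 2.

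**Figure D3:**
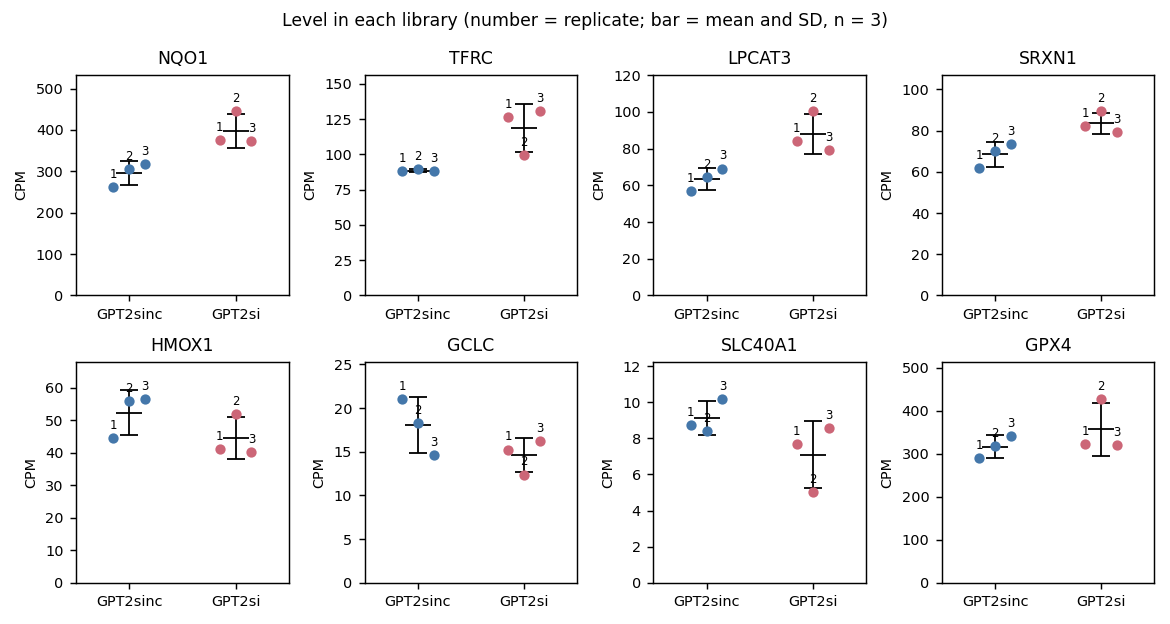
Level in CPM (y axis, from 0) of 8 of the genes in each of the 6 libraries; points carry the replicate number, and bars give the mean and SD (n = 3). In the top row every GPT2si library is above every GPT2sinc library, and in the bottom row the groups overlap.

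Among the thioredoxin genes, SRXN1, the sulfiredoxin that repairs overoxidised peroxiredoxins, had 61.9, 70.0 and 73.5 CPM in GPT2sinc and 82.2, 89.4 and 79.4 CPM in GPT2si. Its groups did not overlap, and GPT2si 2 was again the highest. The log2 fold change of SRXN1 was 0.29 (SE 0.10; edgeR adjusted p = 0.151; 0.038 to 0.509 over the alternatives). SRXN1 shares 2292 exon bases with an unnamed gene model on the same strand that was at 0 in every library. TXN, thioredoxin itself, had 45.9 to 55.7 CPM in GPT2sinc and 57.6 to 62.7 CPM in GPT2si (log2 fold change 0.18; adjusted p = 0.374). TXNRD1, the cytosolic thioredoxin reductase, was spread most by 1 library. It had 93.6, 97.5 and 96.7 CPM in GPT2sinc and 105, 85.3 and 104 CPM in GPT2si, with GPT2si 2 below all others. Its log2 fold change was 0.03 (adjusted p = 0.893), and 0.11 without GPT2si 2 (adjusted p = 0.316). PRDX1, an abundant cytosolic peroxiredoxin, overlapped between groups at 582 to 728 CPM and 672 to 734 CPM (log2 fold change 0.10; adjusted p = 0.606). It shares 379 exon bases with MMACHC on the opposite strand, whose count was 3.75% of that of PRDX1.

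For glutathione synthesis, 0 of 5 genes passed and the directions were mixed. GCLC, the catalytic subunit of the rate-limiting glutamate-cysteine ligase, had 21.1, 18.3 and 14.7 CPM in GPT2sinc and 15.3, 12.4 and 16.2 CPM in GPT2si. The groups overlapped, with a difference of -0.30 on the log2 scale (SE 0.16; adjusted p = 0.331), and of -0.08 without GPT2sinc 1 and GPT2si 2. GCLM, its modifier subunit and a classic NRF2 target, had 10.1 to 11.9 CPM in GPT2sinc and 9.65 to 12.1 CPM in GPT2si (log2 fold change -0.03; adjusted p = 0.927). GSS, glutathione synthetase, stood at 173 ± 17.1 and 185 ± 22.2 CPM (SD, n = 3 each; log2 fold change 0.10; adjusted p = 0.636). CBS and CTH turn homocysteine into cysteine by transsulfuration. CBS had 190 to 207 CPM in GPT2sinc and 203 to 255 CPM in GPT2si, and CTH had 5.79 to 6.02 CPM in GPT2sinc and 4.93 to 5.51 CPM in GPT2si. Every CTH value in GPT2si was the lower, yet its log2 fold change of -0.16 had an adjusted p of 0.551. CBS has a near-identical copy in GRCh38, CBSL, so that its count is uncertain.

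The genes that use, restore and export glutathione also had 0 of 5 past the test. GPX4 had 289, 318 and 342 CPM in GPT2sinc and 323, 428 and 320 CPM in GPT2si, and only GPT2si 2 was above the GPT2sinc range. Its log2 fold change of 0.17 (SE 0.12; adjusted p = 0.465) was 0.01 without GPT2si 2. GPX1, the cytosolic glutathione peroxidase, had 111, 133 and 135 CPM in GPT2sinc and 138, 184 and 137 CPM in GPT2si. Its groups did not overlap, but GPT2si 1 and 3 lay close to the GPT2sinc range, and the log2 fold change was 0.28 (adjusted p = 0.281), or 0.11 without GPT2si 2. GSR, glutathione reductase, was at 155 ± 9.41 and 154 ± 3.65 CPM (SD, n = 3 each; log2 fold change -0.01; adjusted p = 0.977; 95% interval -0.19 to 0.17). GSTP1, a glutathione transferase that conjugates drugs and lipid aldehydes, had 429 to 511 CPM in GPT2sinc and 453, 610 and 448 CPM in GPT2si, and its log2 fold change of 0.09 was -0.08 without GPT2si 2. ABCC1, the pump that exports glutathione and its conjugates, had 193, 205 and 184 CPM in GPT2sinc and 177, 176 and 170 CPM in GPT2si. All 3 GPT2si values of ABCC1 were the lower, at a log2 fold change of -0.15 (SE 0.08; adjusted p = 0.313).

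**Figure D4:**
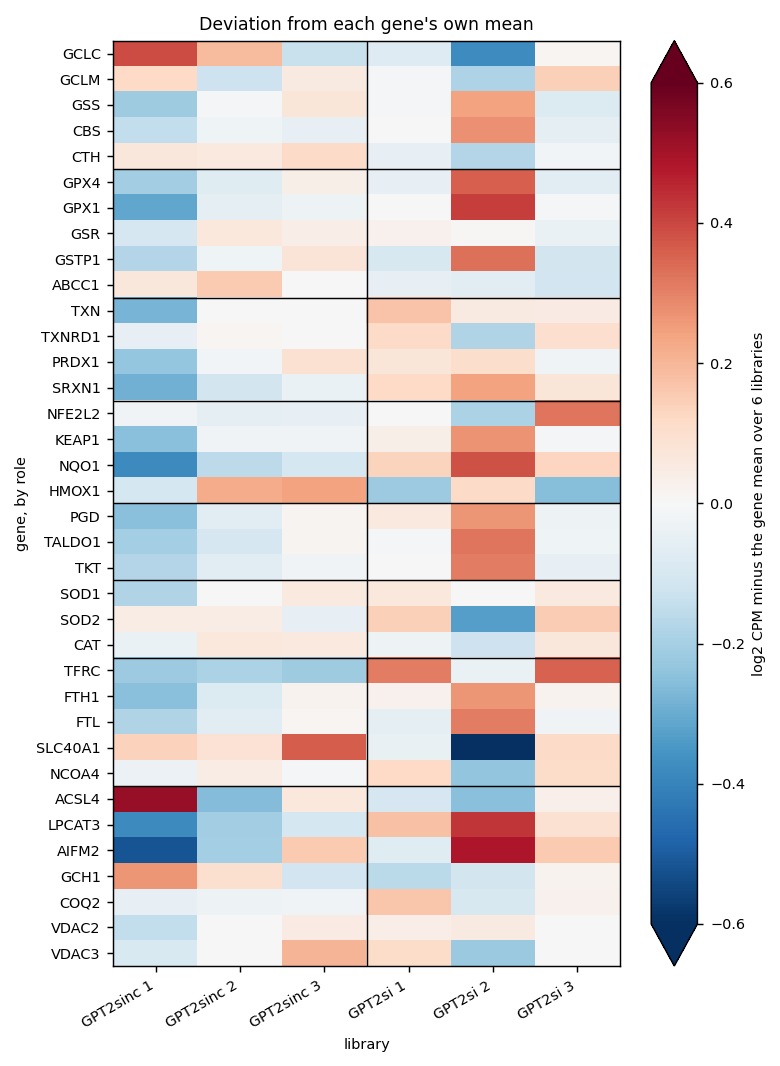
Log2 CPM of each of the 36 genes (rows, grouped by role) in each of the 6 libraries (columns), minus the gene's mean over the libraries; red is above and blue below that mean, and values past 0.6 either way share the end colours. The GPT2si 2 column holds the highest or lowest value of 28 genes, and TFRC is the row in which all 3 GPT2sinc libraries lie close together below the others.

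The 3 pentose phosphate genes had the same highest and lowest library, and 0 of 3 passed the test. PGD, which makes NADPH from phosphogluconate, and TALDO1 and TKT, which recycle the sugar phosphates, had log2 fold changes of 0.20, 0.20 and 0.18 with adjusted p from 0.32 to 0.374. The highest value of each was in GPT2si 2 and the lowest in GPT2sinc 1. TKT, for example, had 600, 647 and 668 CPM in GPT2sinc and 678, 838 and 655 CPM in GPT2si. Without both libraries the 3 log2 fold changes were 0.03, 0.01 and 0.01. Of the enzymes that remove superoxide and hydrogen peroxide, SOD1 (cytosolic), SOD2 (mitochondrial) and CAT (catalase, in peroxisomes) had log2 fold changes of 0.08, -0.01 and -0.05, with overlapping groups and adjusted p of at least 0.654. SOD2 had 27.4 to 29.3 CPM in GPT2sinc and 31.4, 22.5 and 31.5 CPM in GPT2si. GPT2si 2 was thus the lowest SOD2 value of all 6 and the other GPT2si values the highest.

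TFRC, the transferrin receptor that brings iron into the cell, had a larger difference without GPT2si 2 than with it. It had 87.9, 89.5 and 88.0 CPM in GPT2sinc and 126, 99.4 and 131 CPM in GPT2si. The GPT2sinc libraries were nearly level, all GPT2si libraries were above them, and GPT2si 2 was the nearest to them. The log2 fold change was 0.42 (SE 0.11; 1.34-fold; edgeR adjusted p = 0.0863). Without GPT2si 2 it was 0.52 (edgeR adjusted p = 0.00471), and with the GC and length offsets 0.54 (edgeR adjusted p = 0.00442). Its adjusted p ran from 0.000596 to 0.316 over the alternatives, and the highest belonged to the fit without GPT2sinc 1, in which edgeR called only 4 genes of the whole table. The ferritin chains, which store iron, overlapped between the groups. FTH1, the heavy chain, had 1537 ± 145 CPM in GPT2sinc and 1776 ± 176 CPM in GPT2si, and FTL, the light chain, 649 ± 43.1 and 727 ± 104 CPM (SD, n = 3 each). Their log2 fold changes of 0.21 and 0.16 had adjusted p of 0.301 and 0.433, and without both libraries they were 0.05 and -0.02. SLC40A1, ferroportin, the iron exporter, had 8.74, 8.42 and 10.2 CPM in GPT2sinc and 7.70, 5.03 and 8.58 CPM in GPT2si. The groups met at 8.42 and 8.58 CPM, and the log2 fold change of -0.36 (SE 0.20; adjusted p = 0.35) was -0.18 without GPT2si 2. NCOA4, the receptor that sends ferritin to autophagy, had 110 to 116 CPM in GPT2sinc and 122, 95.4 and 121 CPM in GPT2si (log2 fold change 0.01; adjusted p = 0.982).

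LPCAT3 places polyunsaturated chains into membrane phospholipids, the substrates of lipid peroxidation. It had 57.1, 64.5 and 69.1 CPM in GPT2sinc and 84.2, 100 and 79.4 CPM in GPT2si, with no overlap. Its log2 fold change of 0.47 was the largest of the 36 (SE 0.11; 1.38-fold; edgeR adjusted p = 0.0794; 0.0104 to 0.345 over the alternatives). LPCAT3 shares 3100 exon bases in GENCODE 29 with EMG1, a ribosome assembly gene on the opposite strand. The EMG1 count was 97.8% of that of LPCAT3, and its log2 fold change was 0.45 (SE 0.11; edgeR adjusted p = 0.0854). The libraries kept strand, but the sources used here do not give the strand setting of the counting. Whether the counting told reads of LPCAT3 and EMG1 apart was not tested. FTH1 shares 1267 exon bases with BEST1 on the opposite strand, and the BEST1 count was 0.0231% of that of FTH1. ACSL4, which loads the same fatty acids onto coenzyme A, had 10.7, 6.20 and 7.77 CPM in GPT2sinc and 6.92, 6.23 and 7.59 CPM in GPT2si. The difference of -0.25 on the log2 scale (adjusted p = 0.525) came with 1 high library, GPT2sinc 1, and was -0.01 without it.

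Of the radical traps that act beside GPX4, the genes described here, AIFM2, GCH1 and COQ2, did not pass the test. Other radical-trapping genes were listed apart, and 1 of those rose, as given below. AIFM2, also called FSP1, which regenerates reduced coenzyme Q, had 0.937, 1.16 and 1.49 CPM in GPT2sinc and 1.27, 1.87 and 1.49 CPM in GPT2si (log2 fold change 0.36; SE 0.26; adjusted p = 0.463; 0.19 without GPT2si 2). It shares 11 exon bases with MACROH2A2 on the opposite strand, which had 118 to 151 CPM. Without the strand setting of the counting, the low AIFM2 count is uncertain. GCH1, the first enzyme of tetrahydrobiopterin synthesis, had 2.73 to 3.55 CPM in GPT2sinc and 2.65 to 3.01 CPM in GPT2si (log2 fold change -0.17; adjusted p = 0.614). COQ2, of coenzyme Q synthesis, had 11.4 to 11.7 CPM in GPT2sinc and 11.1 to 13.3 CPM in GPT2si (log2 fold change 0.07; adjusted p = 0.786). VDAC2 and VDAC3, channels of the outer mitochondrial membrane that the ferroptosis inducer erastin binds, had log2 fold changes of 0.06 and -0.07 (adjusted p = 0.712 and 0.746).

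Per transcript length (TPM, each gene's share of counts per base on a common scale), the 36 genes spanned from 2664 TPM for FTH1 to 0.783 TPM for AIFM2 in GPT2sinc. FTL followed at 1576 TPM, then PRDX1 at 1142 ± 83.6 and GSTP1 at 1047 ± 48.4 TPM, whose ranges of mean and SD overlapped. GPX4 came next at 734 ± 31.0 TPM (SD, n = 3). In GPT2sinc every GPX4 value lay below every value of PRDX1 and GSTP1, and AIFM2, GCH1 (2.29 ± 0.392 TPM) and ACSL4 (3.30 ± 1.02 TPM) were the lowest of the set. GCLM and GCLC had 4.89 ± 0.513 and 10.1 ± 2.22 TPM, far below GSS at 136 ± 8.36 TPM. Of FTH1, 25 numbered pseudogene rows held 1.71% as many counts as the gene, and for VDAC2 5 such rows held 10.9%, so that reads may be split between these copies. SOD2 has a pair of overlapping gene models in GENCODE 29 and a long reference transcript, and its TPM is uncertain. Its count is uncertain as well, since on the opposite strand it shares 1141 exon bases with ACAT2 and 298 with WTAP. Their counts were 104% and 91.1% of that of SOD2, with log2 fold changes of 0.40 and 0.03 (edgeR adjusted p = 0.0951 and 0.903). The strand setting is not given, and whether the counting told the reads of these genes apart was not tested.

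**Figure D5:**
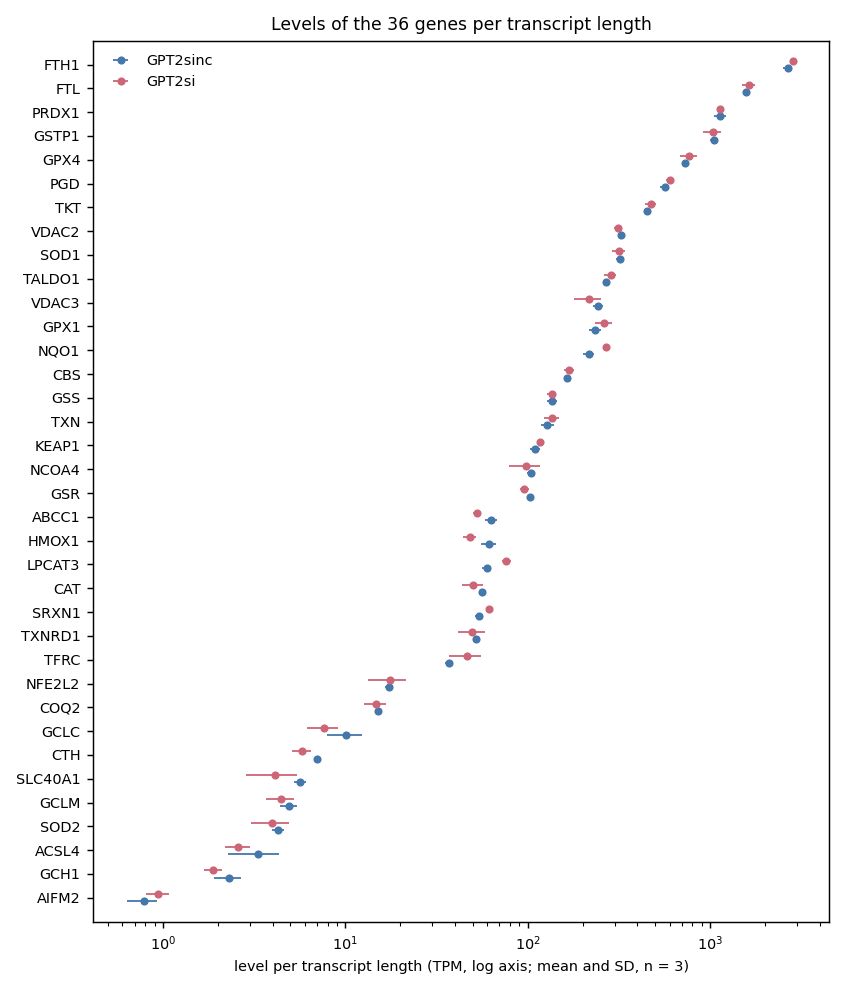
Level per transcript length in TPM (log axis) of the 36 genes, ordered by their GPT2sinc mean; points are group means and lines the SD (n = 3), blue for GPT2sinc and red for GPT2si. The ferritin chains, PRDX1 and GSTP1 are above 1000 TPM, and AIFM2 is the gene below 1 TPM.

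Beyond the 36, 190 other genes of the same pathways were listed, of which 172 had enough counts to be tested; 2 rose and 1 fell in the edgeR fit, against the same 1.42% of all tested genes. SCLY, which frees selenium from selenocysteine for reuse, was among those that rose. The other riser was 1 of 22 tested genes listed as radical-trapping antioxidants (edgeR adjusted p = 0.0484). SCLY had 21.3, 22.1 and 22.2 CPM in GPT2sinc and 31.6, 36.3 and 28.7 CPM in GPT2si (log2 fold change 0.56; SE 0.11; adjusted p = 0.0487). All 3 GPT2si libraries were the higher for SCLY. DUOX2, an oxidase that releases hydrogen peroxide, fell by 1.21 on the log2 scale (SE 0.20; adjusted p = 0.0259), from 18.8, 18.0 and 13.5 CPM to 7.00, 5.62 and 9.02 CPM. SCLY and DUOX2 had adjusted p of up to 0.243 and 0.151 in the alternative fits.

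The cystine importer that feeds glutathione synthesis has a light and a heavy chain. SLC7A11, the light chain, had 10.4, 9.21 and 10.2 CPM in GPT2sinc and 9.51, 6.75 and 10.2 CPM in GPT2si, and its log2 fold change of -0.17 (adjusted p = 0.612) was -0.02 without GPT2si 2. SLC3A2, the heavy chain, which also serves other amino acid carriers, had 212, 236 and 244 CPM in GPT2sinc and 275, 348 and 255 CPM in GPT2si. Its log2 fold change of 0.34 (adjusted p = 0.164) was 0.19 without GPT2si 2 and 0.14 without both GPT2sinc 1 and GPT2si 2. Among glutathione enzymes and transport, 0 of 32 tested genes passed. GLRX, glutaredoxin, was lower in every GPT2si library (39.0 ± 0.388 to 29.8 ± 3.43 CPM; SD, n = 3 each; log2 fold change -0.39; edgeR adjusted p = 0.108), and MGST1, a microsomal glutathione transferase, was higher in every one (17.0 ± 2.02 to 22.2 ± 0.89 CPM; log2 fold change 0.39; edgeR adjusted p = 0.129).

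The leading genes of the NRF2, NADPH, iron, thioredoxin and ferroptosis lipid lists did not pass either. BACH2, a repressor that binds the same element as NRF2, had 2.57, 2.86 and 2.18 CPM in GPT2sinc and 1.07, 1.18 and 1.65 CPM in GPT2si (log2 fold change -0.97; SE 0.23; adjusted p = 0.0731). SQSTM1, the autophagy receptor that binds KEAP1, had a log2 fold change of 0.37 (adjusted p = 0.116), or 0.23 without GPT2si 2. Among 23 tested NRF2 partners and other targets 0 passed, and their median was -0.03. For NADPH supply 0 of 15 tested genes passed. MTHFD1 and MTHFD2, folate enzymes of the cytosol and mitochondria, had log2 fold changes of 0.27 and -0.18 (adjusted p = 0.131 and 0.284), each without overlap and in opposite directions. The iron genes with the smallest p were ISCU, the scaffold of iron-sulfur cluster assembly (log2 fold change 0.34; adjusted p = 0.0902), and HFE, a binding partner of the transferrin receptor (log2 fold change -0.35; adjusted p = 0.11). HFE was thus lower in every GPT2si library where TFRC was higher, from 39.2, 37.7 and 41.1 CPM to 31.8, 28.8 and 32.2 CPM. PRDX6, a peroxiredoxin that also acts on phospholipids, and TXNRD2, the mitochondrial thioredoxin reductase, had log2 fold changes of 0.25 and 0.34 (adjusted p = 0.201 and 0.182), or 0.17 and 0.18 without GPT2si 2, and among 17 thioredoxin partners 0 passed. Of the ferroptosis lipid genes, SCD, which makes monounsaturated fatty acids, and ALOX15, a lipoxygenase, had log2 fold changes of -0.28 and -0.49 (adjusted p = 0.117 and 0.246), each lower in every GPT2si library.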

How the data were processed

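RNA-seq of 3 GPT2si and 3 GPT2sinc libraries was used. The authors deposited raw whole-number counts for each Ensembl gene. Per the submitters' processing notes CASAVA and StringTie were used, and per the labels' protocols poly(A) RNA was selected and strand was marked with dUTP. Not given in the sources used here are the aligner, the counting program, its strand setting and the genome build. The 6 columns were matched by name, and 0 were unmapped. Symbols came from a gene name table (60295 of 60564 rows) and GENCODE 29 (241 more), as did exons, transcript lengths and GC content.

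Groups were compared with edgeR 4.0.16 (quasi-likelihood F test; R 4.3.3), with TMM factors, filterByExpr and group as the only term. P-values were adjusted by Benjamini-Hochberg over all 17006 tested genes (threshold 0.05), and those with no tool named are from this edgeR fit. CPM were scaled by TMM factors, and TPM used the reference transcript's length. Log2 CPM in the plots used a prior count of 2. Alternatives were other size factors and filters, DESeq2 1.42.0, limma-voom 3.58.1, a replicate block, loess offsets (span 0.5) for GC and length, and leaving out each library. Leaving out GPT2sinc 1 and GPT2si 2 together was added after seeing the data. The fit was tested on simulated counts. These held no GC-related shift between libraries, so that test does not cover such a shift. No libraries were duplicates (chi-square per degree of freedom at least 8.23). The genes named are all 36, GPT2, SLC7A11, SLC3A2, PRDX6 and, from each list of other pathway genes, those past the test or otherwise the 2 with the smallest p. Some genes this rule takes are not reported here. EMG1, ACAT2, WTAP, MACROH2A2, BEST1, MMACHC, AGPS as an overlapping gene, and the unnamed gene models that overlap NFE2L2 and SRXN1 were chosen after their values were seen. The 36 genes and all lists were chosen with earlier results of these data known.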

Additional observations from a re-analysis of the deposited data

How the results depend on the processing

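Over 53 named genes and 16 alternative fits, 743 of 848 fold changes kept their direction and their side of the threshold, 49 passed the threshold newly, 14 no longer passed it and 42 changed sign. The sign changes touched 16 genes, and the cause was not tested. The count of the 36 genes past the test (0) was 3 with DESeq2, 4 with GC and length offsets, 4 without GPT2sinc 1 and GPT2si 2 together, and 0 to 2 when single libraries were left out. That of the other pathway genes (3) was 1 with DESeq2 size factors, upper-quartile factors or limma-voom, 0 without a low-count filter, 13 with DESeq2, 19 with the offsets, 21 without both libraries, and 0 to 5 when single libraries were left out. Over all genes edgeR called 98 higher and 143 lower, against 75 and 167 with upper-quartile factors, 1200 and 834 with the offsets, and 569 and 491 with DESeq2. The total of 241 was 173 with DESeq2 size factors, 174 with limma-voom, 44 without the filter, 836 without GPT2si 2 and 1 to 109 without any other single library.

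Within-group deviations of same-number libraries had correlations of 0.0855, 0.114 and -0.187, and those of different-number libraries ran from -0.272 to 0.247. GPT2sinc 1 and GPT2si 2, which stood apart, enter these values, so the correlations cannot decide whether replicate numbers pair the libraries. With a replicate block 2 of the 36 genes passed (LPCAT3 and NQO1) and 558 of all genes, and with the block and the offsets together 3 of the 36, 18 of the 172 other pathway genes tested and 1819 of all 17006 genes.

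Log2 fold changes that changed sign were, with the offsets, GCLM 0.16, GSR 0.010, SOD2 0.20 and SLC7A11 0.092, and with block and offsets 0.16, 0.012, 0.21 and 0.10. With upper-quartile factors, which moved the median of all genes to -0.06, TXNRD1 was -0.015 and NCOA4 -0.038. NCOA4 was -0.0019 with the 1 CPM filter, -0.00039 with limma-voom and -0.0026 with the block. Without GPT2sinc 1 and GPT2si 2 together, GCLM was 0.094, GSS -0.083, GPX4 -0.046, GSTP1 -0.14, PRDX1 -0.021, SOD2 0.14, FTL -0.017, ACSL4 0.048, VDAC2 -0.014 and SLC7A11 0.016. Leaving out single libraries gave -0.11 to 0.035 for GCLM, -0.012 to 0.17 for GSS, -0.055 to 0.027 for GSR, -0.080 to 0.17 for GSTP1, -0.028 to 0.11 for TXNRD1, -0.045 to 0.20 for NFE2L2, -0.092 to 0.12 for SOD2, -0.062 to 0.10 for NCOA4, -0.0058 to 0.12 for COQ2 and -0.16 to 0.015 for VDAC3.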
